A study of Mus musculus with 16 samples.

Results

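The genes described here are 43 interferon-stimulated genes and their regulators, measured in mouse hippocampus. They were taken from the deposited count table by gene symbol, leaving aside the families of guanylate-binding proteins, immunity-related GTPases, Ifitm, Ifit, Oas and PYHIN genes. All 43 had a row among the 19449 genes listed. The series holds 16 RNA-seq libraries from the hippocampus of mice aged 3 months, 4 libraries in each of 4 groups. The groups were wild type injected with PBS, wild type injected with lipopolysaccharide (LPS, a part of the bacterial outer membrane that TLR4 senses), Tspo knockout (TSPOKO) injected with PBS and Tspo knockout injected with LPS. Tspo encodes the translocator protein of the outer mitochondrial membrane. The labels give no LPS dose, no time after injection, no strain, no sex and no description of how the Tspo allele was made. Nor do they state that replicates came from different mice, and each p-value therefore measures the spread between these libraries, which may be technical.

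Interferons act on neighbouring cells through receptors at the plasma membrane. Type I interferon activates JAK1 and TYK2 and leads to complexes with IRF9 that bind interferon-stimulated response elements (ISRE), whereas the response to interferon gamma acts through gamma-activated sites (GAS). The induced genes encode sensors of foreign nucleic acid, antiviral restriction factors, the ubiquitin-like modifier ISG15 and further IRF and STAT proteins that amplify or limit the response. In the brain, microglia, astrocytes, endothelial cells and neurons can all respond to interferon.

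The promoters of several members carry the ISRE core, and 6 of them are shown here with 1 promoter that carries a GAS core, because the letters are what these genes share beyond their inducibility. Each stretch is the 150 bases before a transcription start in the RefSeq annotation of GRCm38.p6, written 5′ to 3′ on the strand of the gene. The stretches are Isg15 (chr4:156200819-156200968, minus strand), Ddx60 (chr8:61927937-61928086, plus), Bst2 (chr8:71537473-71537622, minus), Rsad2 (chr12:26456453-26456602, minus), Slfn8 (chr11:83020811-83020960, minus), Trim30a (chr7:104465194-104465343, minus) and Irf1 (chr11:53769864-53770013, plus). Capitals mark matches to the ISRE core, searched on both strands, so that a match on the other strand appears as its reverse complement; for Irf1 they mark the match to the GAS core (TTCNNNGAA), searched in the same way.
Isg15: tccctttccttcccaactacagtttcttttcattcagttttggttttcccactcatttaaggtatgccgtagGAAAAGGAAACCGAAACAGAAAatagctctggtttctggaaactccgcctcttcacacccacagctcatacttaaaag
Ddx60: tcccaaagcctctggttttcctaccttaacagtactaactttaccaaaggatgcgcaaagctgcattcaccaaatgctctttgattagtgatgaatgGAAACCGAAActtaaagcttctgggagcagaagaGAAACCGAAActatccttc
Bst2: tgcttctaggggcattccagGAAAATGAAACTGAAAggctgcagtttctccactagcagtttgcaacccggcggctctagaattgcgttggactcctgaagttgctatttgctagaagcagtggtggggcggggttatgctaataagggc
Rsad2: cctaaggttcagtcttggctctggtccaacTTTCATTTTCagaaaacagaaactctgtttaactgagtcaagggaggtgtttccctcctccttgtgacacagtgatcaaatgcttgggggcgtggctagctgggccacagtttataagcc
Slfn8: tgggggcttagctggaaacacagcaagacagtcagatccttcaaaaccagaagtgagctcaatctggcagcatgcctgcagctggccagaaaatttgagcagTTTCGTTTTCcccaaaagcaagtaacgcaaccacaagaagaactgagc
Trim30a: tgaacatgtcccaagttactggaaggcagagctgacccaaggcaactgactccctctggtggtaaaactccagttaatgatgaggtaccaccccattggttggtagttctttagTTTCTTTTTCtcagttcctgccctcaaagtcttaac
Irf1: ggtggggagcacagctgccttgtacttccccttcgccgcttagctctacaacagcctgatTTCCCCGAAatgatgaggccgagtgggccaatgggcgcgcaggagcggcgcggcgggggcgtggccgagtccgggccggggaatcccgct

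The Isg15 promoter holds 3 overlapping ISRE matches between 78 and 57 bases before the start. Ddx60 holds 2 separate matches, 1 of them ending 10 bases before the start, and Bst2 holds 2 overlapping matches next to a GAS match that ends inside the first of them. Of the 43 members, 33 had a window of 250 bases before to 50 bases after a start in the RefSeq table, in 42 windows. An ISRE match was found in 13 of these 42 windows (31%), against 3.44% of the 32851 promoter windows of the same length that were searched. Counted by gene, 11 of 33 members (33.3%) held 1 or more, against 3.99% of the genes with a window searched. These members were Bst2, Ddx58, Ddx60, Eif2ak2, Ifih1, Isg15, Rsad2, Slfn5, Slfn8, Stat2 and Trim30a. The 2 windows of Slfn8 overlap and hold the same match. A GAS match was found in 7 of 42 member windows (16.7%), against 8.3% of the windows searched, in Adar, Bst2, Eif2ak2, Ifi35, Irf1, Irf8 and Samhd1. A match is a run of letters and was not tested for binding. Usp18, Dhx58, Zbp1, Parp9, Parp14, Mx1, Mx2, Rtp4, Ifi27 and Ifi27l2a were not matched to the promoter table.

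**Figure D1:**
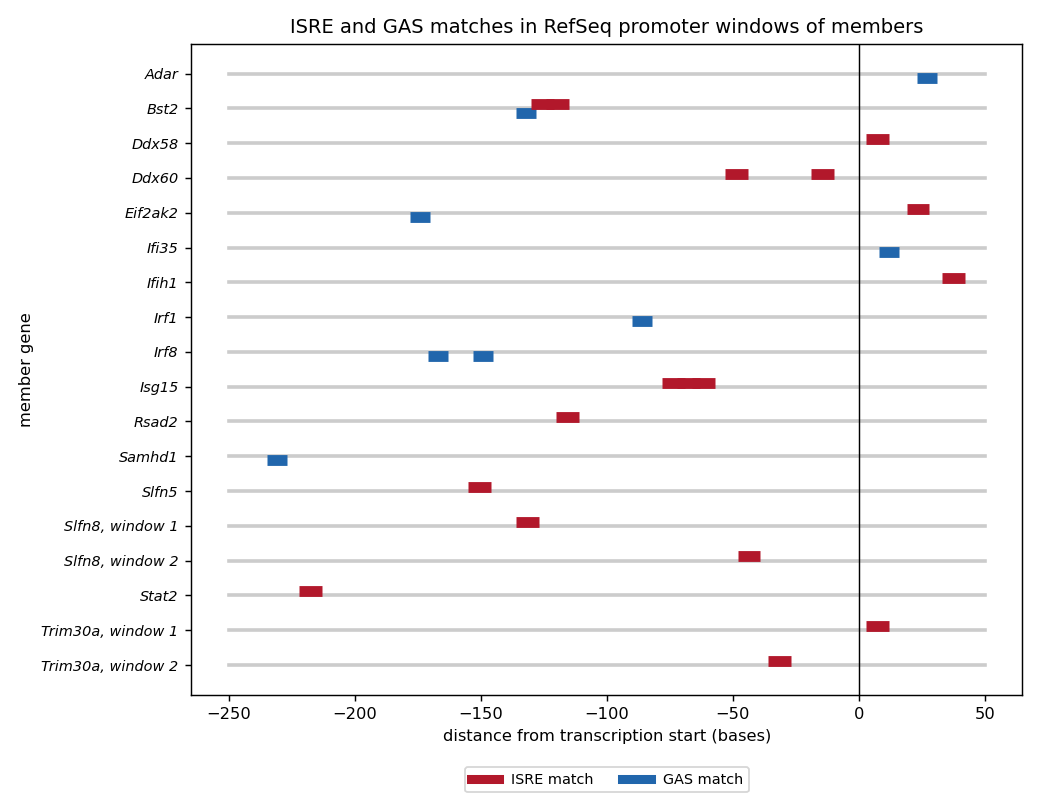
Position of each ISRE match (red) and GAS match (blue) in the promoter windows of the members that hold any; the horizontal axis is the distance in bases from the RefSeq transcription start, and each grey line is a window of 300 bases. The ISRE matches of Isg15, Ddx60, Bst2, Rsad2 and Slfn8 lie before the start, and those of Ddx58, Eif2ak2 and Ifih1 just after it.

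Library totals ran from 30198619 to 50009041 counts. Tspo stood at 2.52, 2.59, 2.06 and 5.17 CPM (counts divided by the TMM-scaled library size) in replicates 1 to 4 of wild-type PBS, and at 2.63, 11.9, 9.4 and 10.1 CPM in wild-type LPS. It stood at 2.33, 0.152, 0.28 and 0.47 CPM in the libraries labelled knockout PBS and at 0.486, 0.366, 0.274 and 0.209 CPM in knockout LPS. The library labelled knockout PBS replicate 1 thus lies inside the wild-type PBS range of Tspo, against its label, and directions drawn from that group include it. Lcn2, a gene that LPS induces strongly in brain endothelium and astrocytes, stood at 0.641, 238, 209 and 237 CPM in wild-type LPS and at no more than 0.302 CPM in the 12 libraries of the other groups, so wild-type LPS replicate 1 stands apart from the rest of its group. Sample titles include a code whose meaning is not stated. Wild-type LPS replicate 1 has the code of wild-type PBS replicate 4, and the other 3 wild-type LPS libraries have that of knockout PBS replicate 4. No code is shared between PBS and LPS in the knockout or between genotypes within a treatment, so code and group cannot be told apart there. The 8 markers of hippocampal neurons were all detected, with a summed level of 551 to 1060 CPM.

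The response of the members was carried by 3 libraries. With the mean of wild-type PBS subtracted from each member's log2 CPM, the median over the 43 genes was 1.44, 1.18 and 1.27 in wild-type LPS replicates 2, 3 and 4, and -0.11 in replicate 1. It lay between -0.20 and 0.00 in the 4 knockout LPS libraries and between -0.16 and -0.09 in the 4 libraries labelled knockout PBS. Wild-type LPS replicates 2, 3 and 4 held 28, 26 and 26 members raised by more than 1 on this scale, and the other 13 libraries held none. For 27 of the 43 members, wild-type LPS replicate 1 lay inside the range of the wild-type PBS libraries; it lay below that range for 13 and above it for 3, which were Trafd1, Herc6 and Adar. Within the code that holds wild-type PBS replicate 4 and wild-type LPS replicate 1, Irf7 stood at 1.3 and 1.44 CPM; with 1 library of each group this code allows no test. Within the code of the other 3 wild-type LPS libraries, the single library labelled knockout PBS had a median of -0.09.

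**Figure D2:**
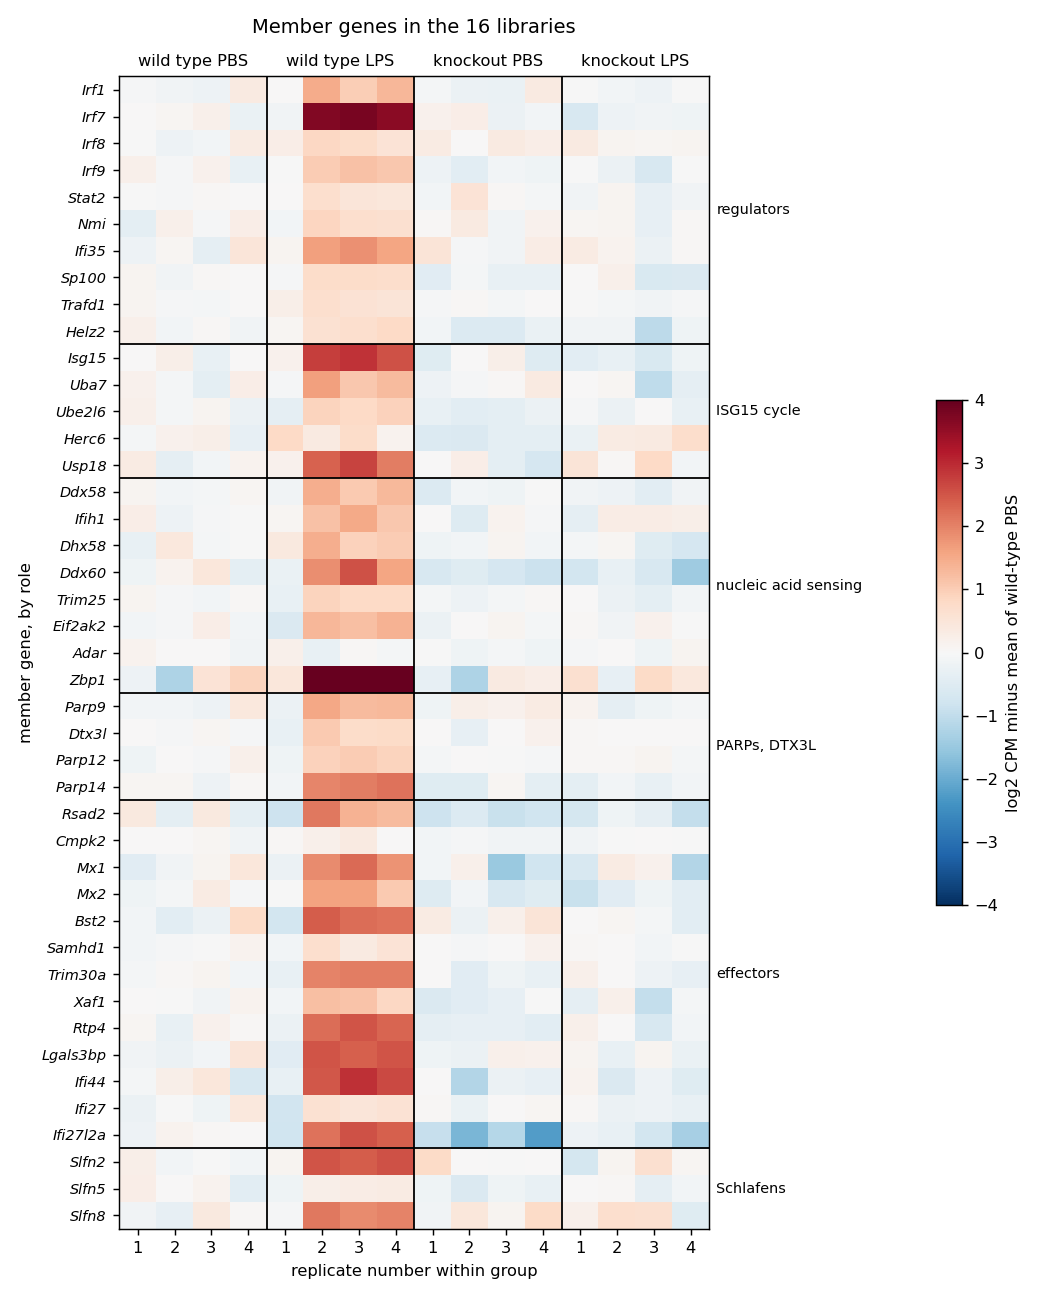
Heat map of log2 CPM minus the wild-type PBS mean for the 43 members (rows, by role) in the 16 libraries (columns, by group and replicate number); red is higher, blue is lower, and the color scale ends at 4 in both directions, which Zbp1 exceeds. Wild-type LPS replicates 2, 3 and 4 stand out in red for most rows, whereas replicate 1 looks like the PBS and knockout libraries.

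In wild type, the members as a group were higher after LPS. Of the 42 members that passed the filter on low counts, 27 rose and 0 fell at an adjusted p of at most 0.05 (edgeR quasi-likelihood test over 16269 genes), against 4.72% of all genes tested that rose and 3.85% that fell. The median log2 fold change of the 42 was 1.04, against 0.00 for all genes tested, and the values ran from -0.02 for Adar to 3.37 for Irf7. DESeq2 called 35 of the 42 members and 12.9% of all genes in either direction, and limma-voom with sample quality weights 38 members and 28.8%, where the edgeR fit called 8.57%. In bulk tissue, more cells of a type and more RNA per cell cannot be told apart. Only Trafd1 had LPS and PBS libraries that did not overlap, against 4.22% of all genes tested that were higher and 4.41% that were lower without overlap. Leaving out wild-type LPS replicate 1, 39 of 43 members rose (10.9% of all genes), the groups did not overlap for 39 (14.9% of all genes), and the median was 1.28. The count was 12, 13 and 15 without wild-type LPS replicate 2, 3 or 4, where 4.62%, 3.28% and 4.23% of all genes were called in either direction. It was 13 and 16 without wild-type PBS replicate 2 or 3, with 3.79% and 3.76% of all genes called. With only the 8 wild-type libraries fitted it was 0, as for all genes, and 37 members had an unadjusted p at or below 0.05, as did 3012 of the 15801 genes in that fit.

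Under LPS, the members were lower in the knockout than in wild type. Of the 42 tested, 34 fell and 0 rose, against 7.28% of all genes tested that fell and 4.61% that rose, with a median log2 fold change of -1.19 against 0.00 for all genes. This comparison shares the wild-type LPS libraries with the comparison within wild type, so the values of both are given side by side and no agreement between them is read. Groups did not overlap for 7 members, Irf1, Trafd1, Helz2, Isg15, Dhx58, Ddx60 and Mx2, all lower in the knockout, against 6.98% of all genes tested that were lower and 7.35% that were higher without overlap. Without wild-type LPS replicate 1, 40 of 43 members fell (13.3% of all genes) and 40 were lower without overlap (18.1% of all genes, with 16.6% higher). The count was 22 without wild-type LPS replicate 3, where 5.23% of all genes were called in either direction, and 7 with only the 8 LPS libraries fitted, where 2.74% were; the fit of all libraries called 11.9%. The 8 members tested that did not pass were Irf8 (-0.44), Nmi (-0.59), Herc6 (-0.21), Dtx3l (-0.63), Adar (0.00), Cmpk2 (-0.19), Ifi27 (-0.48) and Slfn5 (-0.29), each given as a log2 fold change, with adjusted p between 0.0524 for Dtx3l and 0.996 for Adar.

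**Figure D3:**
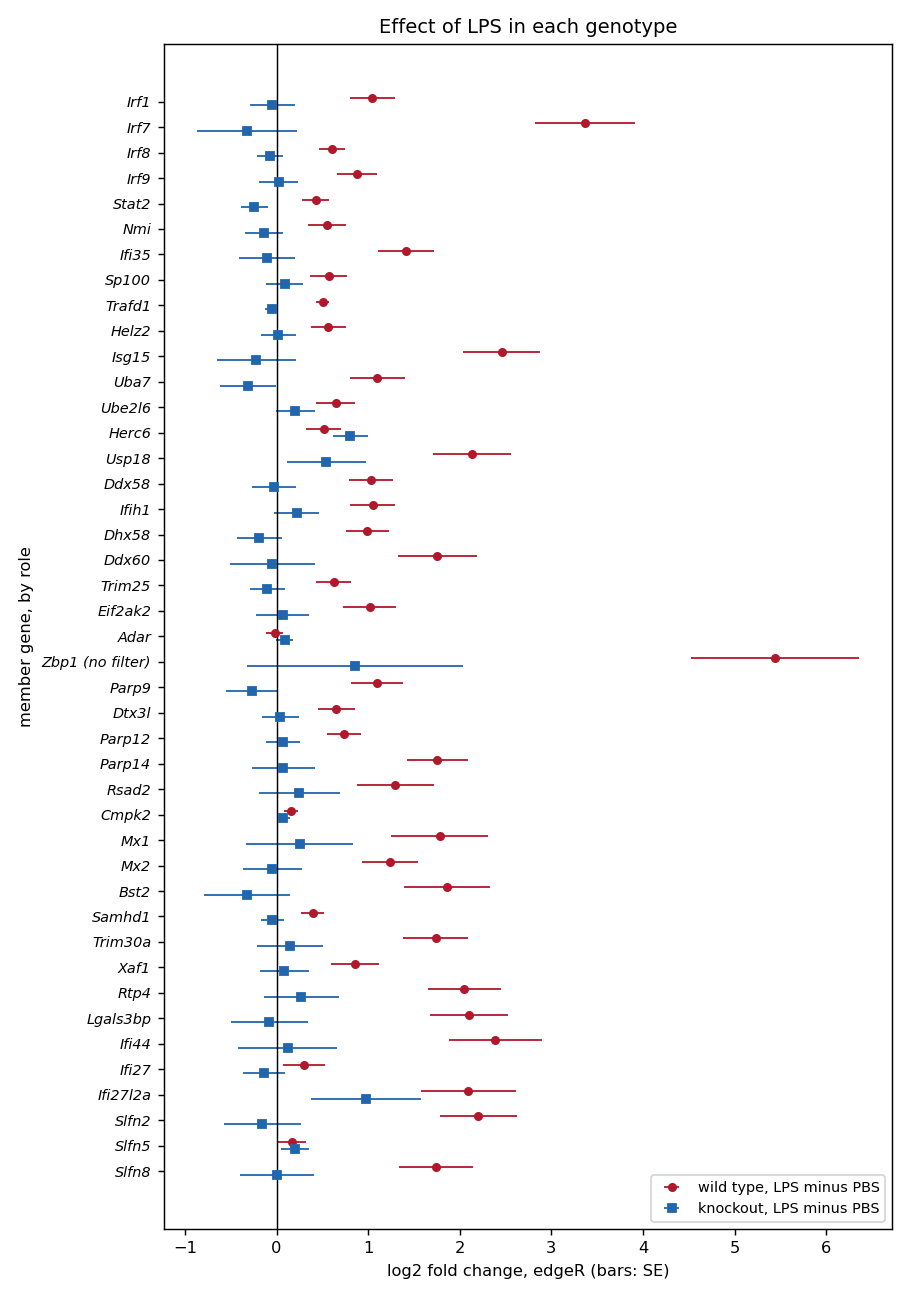
Log2 fold change of LPS against PBS with its SE for each member in wild type (red circles) and in the knockout (blue squares), from the edgeR fit of all 16 libraries; Zbp1 comes from the fit without a filter on low counts. The wild-type values reach 3.37 for Irf7 among the members tested, and the knockout values lie between -0.32 and 0.98.

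Among the regulators, Irf7 (ENSMUSG00000025498; chromosome 7, 141262706 to 141266481 on the minus strand, GRCm38 in GENCODE M21) showed the largest difference of the 42 members tested. IRF7 is the transcription factor that amplifies interferon alpha production. Its level was 1.6, 1.69, 1.83 and 1.3 CPM in wild-type PBS replicates 1 to 4 and 1.44, 21.4, 23.0 and 20.2 CPM in wild-type LPS. In the libraries labelled knockout it was 1.8, 1.91, 1.34 and 1.48 CPM under PBS and 0.997, 1.39, 1.45 and 1.4 CPM under LPS. Only wild-type LPS replicates 2, 3 and 4 were high, and the groups overlapped through replicate 1. The log2 fold change was 3.37 ± 0.55 (SE; adjusted p = 0.00359) for LPS in wild type and -3.66 ± 0.55 (adjusted p = 0.00308) for knockout against wild type under LPS. No ISRE match was found in the RefSeq windows of Irf7. Its exons share 45 bases with Phrf1 on the opposite strand.

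Trafd1 (chromosome 5, 121371725 to 121385632, minus strand) encodes a zinc finger protein that restrains signalling downstream of Toll-like receptors. It stood at 60.7, 54.4, 53.7 and 56.8 CPM in wild-type PBS, at 66, 89.1, 84.4 and 79.8 CPM in wild-type LPS, at 54.6, 58.2, 53.8 and 57.0 CPM in knockout PBS, and at 55.9, 53.3, 51.0 and 55.0 CPM in knockout LPS. All 4 wild-type LPS libraries lay above all 12 others, replicate 1 included. The change was small, at 0.50 ± 0.08 for LPS in wild type (adjusted p = 0.00281) and -0.57 ± 0.08 for knockout against wild type under LPS (adjusted p = 0.00308). Irf9 (chromosome 14, 55603571 to 55610030, plus strand), which encodes the DNA-binding part of the complex that recognises the ISRE, stood at 14.7, 12.4, 14.4 and 10.6 CPM in wild-type PBS, against 12.6, 26.4, 29.3 and 27.1 CPM in wild-type LPS. It stood at 11.3, 9.62, 11.9 and 11.4 CPM in knockout PBS and 12.9, 11, 8.17 and 12.8 CPM in knockout LPS. Wild-type LPS replicate 1 lay among the PBS libraries and below 2 of the knockout LPS libraries. For Irf9 the log2 fold changes were 0.88 ± 0.21 (adjusted p = 0.0215) for LPS in wild type and -1.09 ± 0.22 (adjusted p = 0.00688) for genotype under LPS; its exons share 123 bases with Rnf31 on the same strand.

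Of the 10 regulators, 6 rose with LPS in wild type and 8 fell in the knockout under LPS. Of all genes tested, 4.72% rose in the first of these comparisons and 7.28% fell in the second. Irf1, a transcription factor gene with the GAS core shown above, changed by 1.04 in wild type with LPS and by -1.15 with genotype under LPS on the log2 scale. Ifi35, whose product binds NMI, changed by 1.42 and -1.37. Irf8, a factor of microglia and other myeloid cells, rose by 0.61 in wild type, while its difference of -0.44 under LPS did not pass (adjusted p = 0.0548). Stat2, Sp100 (a nuclear body protein) and Helz2 (a helicase that acts as a nuclear receptor coactivator) did not pass for LPS in wild type, at 0.43, 0.57 and 0.56. They fell with genotype under LPS, by 0.55, 0.76 and 0.90. Nmi passed neither test, at 0.55 and -0.59. A value that misses the threshold does not show that a gene was unaffected. Without wild-type LPS replicate 1, Stat2, Sp100, Helz2 and Nmi all rose, at 0.54, 0.72, 0.69 and 0.71. That replicate lay inside the wild-type PBS range for these genes, so larger values without it follow from leaving it out.

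The ISG15 genes encode a modifier and its conjugation cycle. UBA7 activates ISG15, UBE2L6 carries it, HERC6 ligates it to substrates in the mouse, and USP18 removes it and also blocks the type I interferon receptor. Isg15 (ENSMUSG00000035692; chromosome 4, 156199424 to 156200818, minus strand) stood at 1.04, 1.21, 0.83 and 1.04 CPM in wild-type PBS and at 1.16, 7.34, 7.93 and 6.23 CPM in wild-type LPS. In the knockout it stood at 0.712, 1.03, 1.2 and 0.705 CPM with PBS and at 0.754, 0.83, 0.658 and 0.894 CPM with LPS. Every wild-type LPS library exceeded every knockout LPS library, but replicate 1 fell inside the wild-type PBS range. In the edgeR fit the log2 fold changes were 2.46 ± 0.42 for LPS in wild type (adjusted p = 0.00425) and -2.85 ± 0.42 for genotype under LPS (adjusted p = 0.00308). Isg15 shares 12.8% of its 31-base words with other annotated genes, of which AC151275.1 is the main one, so part of its count is uncertain.

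Uba7 (chromosome 9, 107975505 to 107984060, plus strand) stood at 4.09, 3.44, 2.76 and 4.31 CPM in wild-type PBS, at 3.51, 11.3, 7.7 and 8.77 CPM in wild-type LPS, at 3.13, 3.46, 3.7 and 4.63 CPM in knockout PBS, and at 3.62, 3.8, 1.75 and 2.8 CPM in knockout LPS. Wild-type LPS replicates 2, 3 and 4 were the 3 highest libraries and replicate 1 was not set apart. The log2 fold changes were 1.10 ± 0.30 (adjusted p = 0.0347) for LPS in wild type and -1.38 ± 0.30 (adjusted p = 0.0112) for genotype under LPS. Usp18 (chromosome 6, 121245906 to 121270917, plus strand) stood at 0.87, 0.513, 0.631 and 0.746 CPM in wild-type PBS, at 0.763, 3.7, 4.76 and 2.97 CPM in wild-type LPS, at 0.688, 0.819, 0.504 and 0.403 CPM in knockout PBS, and at 0.997, 0.707, 1.21 and 0.626 CPM in knockout LPS. Again 3 libraries were high, and 2 knockout LPS libraries exceeded wild-type LPS replicate 1. Usp18 had log2 fold changes of 2.14 ± 0.43 (adjusted p = 0.00851) and -1.78 ± 0.41 (adjusted p = 0.015). Ube2l6 did not pass for LPS in wild type (0.64, adjusted p = 0.0703) and fell by 0.79 with genotype under LPS.

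Herc6 and Isg15 were highest in different libraries. It stood at 8.33, 9.98, 10.5 and 7.0 CPM in wild-type PBS, at 15.4, 11.4, 14.7 and 9.66 CPM in wild-type LPS, at 6.07, 5.89, 6.75 and 6.68 CPM in knockout PBS, and at 7.42, 11, 11.5 and 14.5 CPM in knockout LPS. Its highest library was wild-type LPS replicate 1, the one without a rise in Irf7 or Isg15, and all 4 knockout LPS libraries lay above all 4 knockout PBS libraries. The log2 fold change of LPS was 0.52 ± 0.19 in wild type (adjusted p = 0.106) and 0.80 ± 0.19 in the knockout (adjusted p = 0.703, unadjusted p = 0.000789), so neither passed over all genes. The LPS effect in the knockout minus that in wild type was 0.29 ± 0.27 (adjusted p = 0.559). Herc6 shares 13.8% of its 31-base words with other annotated genes, of which Gm45193 is the main one.

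**Figure D4:**
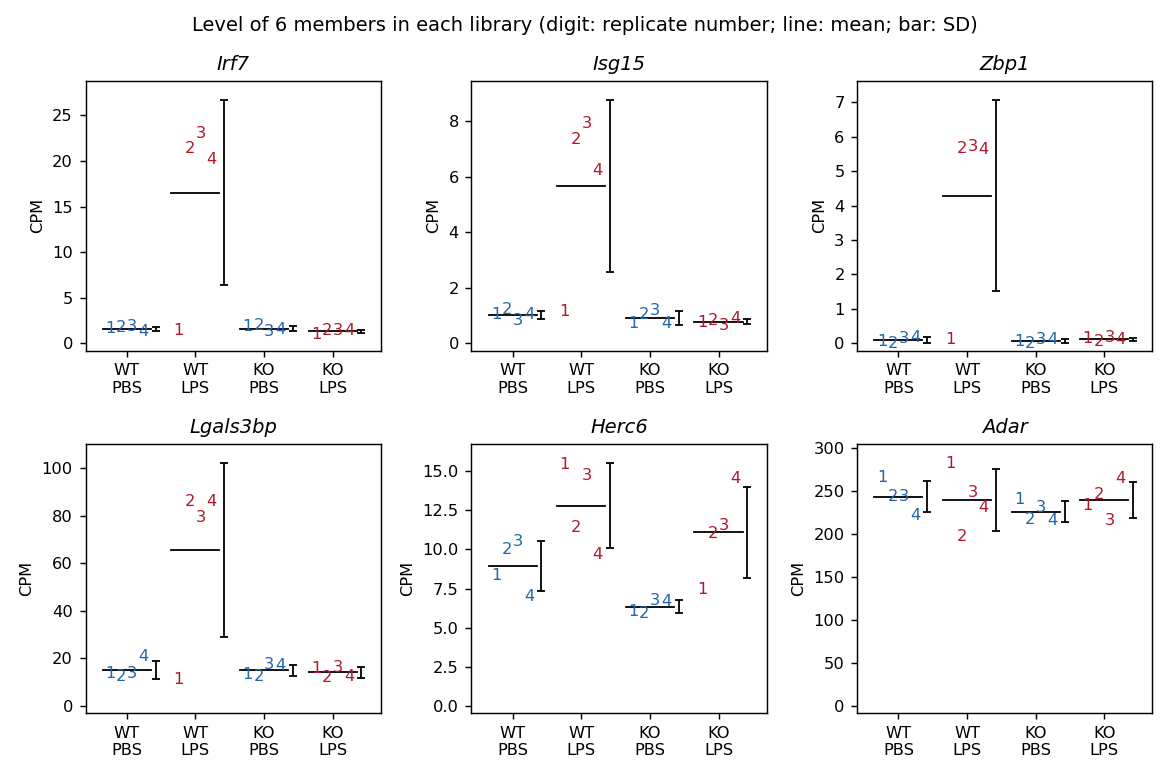
CPM of 6 members in each of the 16 libraries (WT, wild type; KO, knockout); each digit is a library with its replicate number, the horizontal line is the group mean and the bar is the SD (n = 4). Irf7, Isg15, Zbp1 and Lgals3bp are high in wild-type LPS replicates 2, 3 and 4 only, Herc6 is highest in wild-type LPS replicate 1 at 15.4 CPM, and Adar shows no separation of the groups.

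The sensors of foreign nucleic acid include the RIG-I-like helicases, which bind viral RNA in the cytosol: Ddx58 encodes RIG-I, Ifih1 encodes MDA5, Dhx58 encodes LGP2 and Ddx60 a related helicase. Ddx60 (chromosome 8, 61928087 to 62038244, plus strand), with the pair of ISRE matches shown above, stood at 0.841, 1.06, 1.33 and 0.719 CPM in wild-type PBS, against 0.794, 3.66, 5.87 and 2.97 CPM in wild-type LPS. It stood at 0.593, 0.667, 0.588 and 0.503 CPM in knockout PBS and 0.559, 0.78, 0.603 and 0.328 CPM in knockout LPS. Every wild-type library exceeded every knockout library of the same treatment, although wild-type LPS replicate 1 exceeded the highest knockout LPS library by little. The log2 fold change was 1.76 ± 0.43 for LPS in wild type (adjusted p = 0.0211) and -2.54 ± 0.44 for genotype under LPS (adjusted p = 0.00429).

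Dhx58 (chromosome 11, 100694884 to 100704271, minus strand) stood at 1.04, 1.75, 1.23 and 1.28 CPM in wild-type PBS, at 1.71, 3.62, 2.53 and 2.66 CPM in wild-type LPS, at 1.14, 1.21, 1.4 and 1.21 CPM in knockout PBS, and at 1.24, 1.39, 0.905 and 0.805 CPM in knockout LPS. The LPS groups of the genotypes did not overlap, whereas 1 wild-type PBS library exceeded wild-type LPS replicate 1. Its log2 fold changes were 0.99 ± 0.24 (adjusted p = 0.0203) for LPS in wild type and -1.27 ± 0.24 (adjusted p = 0.00569) for genotype under LPS. Ddx58 (chromosome 4, 40203773 to 40239828, minus strand) stood at 5.51, 4.8, 4.81 and 5.43 CPM in wild-type PBS, at 4.67, 14.0, 10.7 and 12.7 CPM in wild-type LPS, at 3.49, 4.73, 4.59 and 5.07 CPM in knockout PBS, and at 4.62, 4.44, 3.78 and 4.68 CPM in knockout LPS. Here wild-type LPS replicate 1 was below every wild-type PBS library. In the edgeR fit the log2 fold changes of Ddx58 were 1.03 ± 0.24 (adjusted p = 0.0175) and -1.27 ± 0.24 (adjusted p = 0.00588). Ifih1 changed by 1.05 with LPS in wild type and by -0.92 with genotype under LPS, and Eif2ak2, the kinase PKR that halts translation on binding double-stranded RNA, by 1.02 and -1.01. All of these passed. Trim25, the ubiquitin ligase that acts on RIG-I, did not pass for LPS in wild type (0.62, adjusted p = 0.0548) and fell by 0.80 with genotype under LPS.

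Zbp1 (ENSMUSG00000027514; chromosome 2, 173206612 to 173218923, minus strand), the sensor of Z-form nucleic acid that triggers necroptosis, was the member nearest to an all-or-none pattern. It stood at 0.058, 0, 0.133 and 0.186 CPM in wild-type PBS, at 0.122, 5.66, 5.7 and 5.63 CPM in wild-type LPS, at 0.0475, 0, 0.112 and 0.101 CPM in knockout PBS, and at 0.146, 0.0488, 0.164 and 0.119 CPM in knockout LPS. The filter on low counts, which needs expression in 4 libraries, removed it because only 3 libraries were high. In the fit without that filter its log2 fold change was 5.44 ± 0.92 for LPS in wild type (adjusted p = 0.00428) and -5.13 ± 0.89 for genotype under LPS (adjusted p = 0.00414). These fitted values depend on how near-zero libraries are handled. Adar, which edits double-stranded RNA and whose product also binds Z-form nucleic acid, stood between 197 and 282 CPM in wild-type LPS and between 221 and 265 CPM in wild-type PBS. Its log2 fold change for LPS in wild type was -0.02 ± 0.09, with an adjusted p of 0.92. The exons of Adar share 1365 bases with Chrnb2 on the opposite strand, and its direction flips to 0.03 and 0.06 in wild type without PBS replicate 1 or LPS replicate 2.

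PARP9 and DTX3L form an ADP-ribosylating and ubiquitin-ligating pair that enhances interferon signalling, and PARP12 and PARP14 add single ADP-ribose units. Parp14 (chromosome 16, 35832874 to 35871544, minus strand) stood at 4.06, 4.01, 3.32 and 3.97 CPM in wild-type PBS, at 3.51, 15.1, 16 and 17.3 CPM in wild-type LPS, at 2.73, 2.73, 4.09 and 2.92 CPM in knockout PBS, and at 2.92, 3.51, 3.13 and 3.58 CPM in knockout LPS. The 3 high libraries were more than 3 times as high as any other. The log2 fold changes were 1.76 ± 0.34 for LPS in wild type (adjusted p = 0.00689) and -1.98 ± 0.34 for genotype under LPS (adjusted p = 0.00394). Parp9 (chromosome 16, 35938470 to 35972605, plus strand) stood at 2.93, 2.9, 2.69 and 4.23 CPM in wild-type PBS, at 2.66, 9.24, 7.58 and 7.81 CPM in wild-type LPS, at 2.8, 3.73, 3.56 and 3.96 CPM in knockout PBS, and at 3.45, 2.44, 2.8 and 2.95 CPM in knockout LPS. Wild-type LPS replicate 1 was the lowest wild-type library. Parp9 changed by 1.10 ± 0.28 (adjusted p = 0.0277) and -1.23 ± 0.28 (adjusted p = 0.0145).

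Parp12 (chromosome 6, 39086410 to 39118349, minus strand) stood at 9.02, 10.3, 9.93 and 11.6 CPM in wild-type PBS, at 8.95, 19.4, 20.8 and 19.0 CPM in wild-type LPS, at 9.61, 10.3, 9.99 and 9.8 CPM in knockout PBS, and at 10.6, 10.5, 10.9 and 9.6 CPM in knockout LPS. Its wild-type LPS replicate 1 was the lowest of all 16 libraries. Its fitted log2 fold changes were 0.74 ± 0.19 (adjusted p = 0.0238) for LPS in wild type and -0.72 ± 0.18 (adjusted p = 0.0231) for genotype under LPS. Dtx3l lies head to head with Parp9, and the exons of the pair share 458 bases on opposite strands, so their counts may not be fully separate. Its log2 fold changes of 0.65 for LPS in wild type (adjusted p = 0.0565) and -0.63 for genotype under LPS (adjusted p = 0.0524) did not pass.

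The effectors act directly on viruses or on infected cells. Mx2 (chromosome 16, 97535308 to 97560900, plus strand), a dynamin-like antiviral GTPase, stood at 0.754, 0.814, 1.1 and 0.825 CPM in wild-type PBS, at 0.855, 2.74, 2.73 and 1.85 CPM in wild-type LPS, at 0.593, 0.789, 0.532 and 0.604 CPM in knockout PBS, and at 0.438, 0.609, 0.768 and 0.626 CPM in knockout LPS. All wild-type LPS libraries exceeded all knockout LPS libraries. In the edgeR fit the log2 fold changes were 1.23 ± 0.31 (adjusted p = 0.0225) for LPS in wild type and -1.75 ± 0.31 (adjusted p = 0.00462) for genotype under LPS. Rtp4 (chromosome 16, 23520291 to 23614222, plus strand), a receptor chaperone that is also interferon-inducible, stood at 1.71, 1.3, 1.83 and 1.65 CPM in wild-type PBS, at 1.37, 7.7, 9.46 and 8.29 CPM in wild-type LPS, at 1.23, 1.27, 1.26 and 1.17 CPM in knockout PBS, and at 1.85, 1.61, 1.01 and 1.49 CPM in knockout LPS. Wild-type LPS replicate 1 was below 3 of the 4 knockout LPS libraries. The log2 fold changes of Rtp4 were 2.05 ± 0.40 (adjusted p = 0.00761) and -2.17 ± 0.40 (adjusted p = 0.00532). Of its 31-base words, 12.5% occur in other genes, of which Gm45338 is the main one.

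Ifi44 (chromosome 3, 151730922 to 151749960, minus strand) stood at 0.58, 0.724, 0.863 and 0.373 CPM in wild-type PBS, at 0.489, 3.62, 5.02 and 4.11 CPM in wild-type LPS, at 0.617, 0.243, 0.504 and 0.47 CPM in knockout PBS, and at 0.681, 0.39, 0.521 and 0.417 CPM in knockout LPS. Its 3 high libraries all exceeded 3.6 CPM, and no other reached 0.9 CPM. Its fitted log2 fold changes were 2.39 ± 0.51 (adjusted p = 0.0117) for LPS in wild type and -2.71 ± 0.52 (adjusted p = 0.00587) for genotype under LPS. Of the 13 effectors, 8 rose with LPS in wild type (4.72% of all genes tested) and 11 fell with genotype under LPS (7.28%). Besides Mx2, Rtp4 and Ifi44, those that rose in wild type were Lgals3bp (2.10), a secreted glycoprotein, Ifi27l2a (2.09), Bst2 (1.86), the tether that holds budding virions at the membrane, Mx1 (1.78) and Trim30a (1.74). With genotype under LPS these fell by 2.21 for Lgals3bp, 2.72 for Ifi27l2a, 2.03 for Bst2, 2.05 for Mx1 and 1.81 for Trim30a. Lgals3bp was the most abundant of these, at 86.0, 79.1 and 85.9 CPM in wild-type LPS replicates 2, 3 and 4, 11 CPM in replicate 1 and 12.1 to 16.2 CPM in knockout LPS.

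Rsad2 and Cmpk2 are neighbours on chromosome 12 that are often induced together, and their values are given side by side. Rsad2 encodes viperin, which makes a chain-terminating nucleotide, and Cmpk2 a mitochondrial nucleotide kinase. Rsad2 stood at 0.977, 7.96, 4.85 and 4.43 CPM in wild-type LPS and 1.36 to 2.39 CPM in wild-type PBS, whereas Cmpk2 stood at 21.7, 23.9, 26.7 and 21.0 CPM in wild-type LPS and 19.1 to 22.0 CPM in wild-type PBS. For LPS in wild type the log2 fold changes were 1.30 ± 0.42 for Rsad2 (adjusted p = 0.0725) and 0.16 ± 0.07 for Cmpk2 (adjusted p = 0.207), and neither passed. With genotype under LPS, Rsad2 fell by 1.88 (adjusted p = 0.0143) and Cmpk2 did not pass at -0.19 (adjusted p = 0.0969). Samhd1, which depletes nucleotide pools, and Xaf1, a promoter of apoptosis, did not pass for LPS in wild type at 0.39 and 0.85, and fell by 0.41 and 1.10 with genotype under LPS. Ifi27, a mitochondrial protein gene, passed neither test, at 0.30 and -0.48. Without wild-type LPS replicate 1 it rose by 0.53 (adjusted p = 0.0133) and fell by 0.72 with genotype under LPS (adjusted p = 0.0017). That replicate lay below the wild-type PBS range for Ifi27, so larger changes without it follow from leaving it out.

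The Schlafens are a family of interferon-inducible proteins that act on RNA and on lymphocyte quiescence. Slfn2 (chromosome 11, 83065112 to 83070678, plus strand) stood at 1.6, 1.24, 1.33 and 1.25 CPM in wild-type PBS, at 1.47, 7.9, 7.43 and 8.11 CPM in wild-type LPS, at 2.35, 1.37, 1.34 and 1.38 CPM in knockout PBS, and at 0.803, 1.46, 2.11 and 1.43 CPM in knockout LPS. In the edgeR fit the log2 fold changes were 2.20 ± 0.42 (adjusted p = 0.00689) for LPS in wild type and -2.10 ± 0.42 (adjusted p = 0.00709) for genotype under LPS. Its 3 high libraries were again wild-type LPS replicates 2, 3 and 4. Slfn8 (chromosome 11, 83002158 to 83020810, minus strand) stood at 0.696, 0.603, 1.03 and 0.799 CPM in wild-type PBS, at 0.733, 3.5, 3.03 and 3.17 CPM in wild-type LPS, at 0.688, 1.06, 0.84 and 1.34 CPM in knockout PBS, and at 0.9, 1.24, 1.23 and 0.537 CPM in knockout LPS. The log2 fold changes were 1.74 ± 0.40 (adjusted p = 0.0177) and -1.41 ± 0.40 (adjusted p = 0.0325). Slfn8 shares 26.8% of its 31-base words with other genes, of which Slfn9 is the main one. Slfn2 shares 10.3%, with Slfn4 as the main one, so reads may have been split between related genes. Slfn5 passed neither test, at 0.17 and -0.29, although its promoter window holds an ISRE match.

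In the knockout, no member passed for LPS against PBS. edgeR called 0 of 42 members in either direction, against 0% of all genes tested, and 1 member, Herc6, had an unadjusted p at or below 0.05, as did 6.88% of all genes. DESeq2 and limma-voom also called 0 members, against 0.0184% and 0% of all genes. The median log2 fold change of the members was 0.01, against -0.01 for all genes tested, and 22 of 42 were above 0. Herc6 was the only member whose LPS libraries all lay above the PBS libraries, against 3.04% of all genes tested. Of the 43 members, 27, 25, 19 and 24 lay inside the knockout PBS range in knockout LPS replicates 1 to 4. An approximate 95% interval of the change used the normal distribution and is somewhat narrower than the F test implies. It reached up to 0.75 for Irf7, 0.62 for Isg15, 0.79 for Slfn8 and 0.59 for Mx2, each below the change in wild type. It reached 2.16 for Ifi27l2a, whose change in wild type was 2.09. The upper bound also exceeded the wild-type change for Herc6 (1.18 against 0.52), Slfn5 (0.50 against 0.17), Ifi27 (0.31 against 0.30), Cmpk2 (0.22 against 0.16) and Adar (0.27 against -0.02). The knockout LPS libraries also showed no Lcn2 above 0.119 CPM.

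Whether the effect of LPS differed between genotypes was tested by the interaction. At an adjusted p of at most 0.05, 3 of 42 members had a smaller LPS effect in the knockout and 0 a larger one, against 0.596% and 0.553% of all genes tested. These were Irf7 (-3.69 ± 0.76, adjusted p = 0.0489), Trafd1 (-0.56 ± 0.11, adjusted p = 0.0432) and Isg15 (-2.68 ± 0.59, adjusted p = 0.05), the last of them just under the threshold before rounding. The median over the 42 members was -1.05 against -0.01 for all genes tested, and 30 of 42 had an unadjusted p at or below 0.05, against 21.6% of all genes. The count depended on the libraries and the tool. It was 36 of 43 without wild-type LPS replicate 1 (8.88% of all genes lower, 7.21% higher). It was 9 without wild-type PBS replicate 4 (5.75% of all genes in either direction) and 1 without wild-type PBS replicate 1 (1.07%). Without any other single library it was 0, where at most 0.262% of all genes were called. DESeq2 called 19 members and limma-voom 31, all with a smaller LPS effect in the knockout; they called 7.87% and 24.8% of all genes in either direction, where the edgeR fit called 1.15%.

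**Figure D5:**
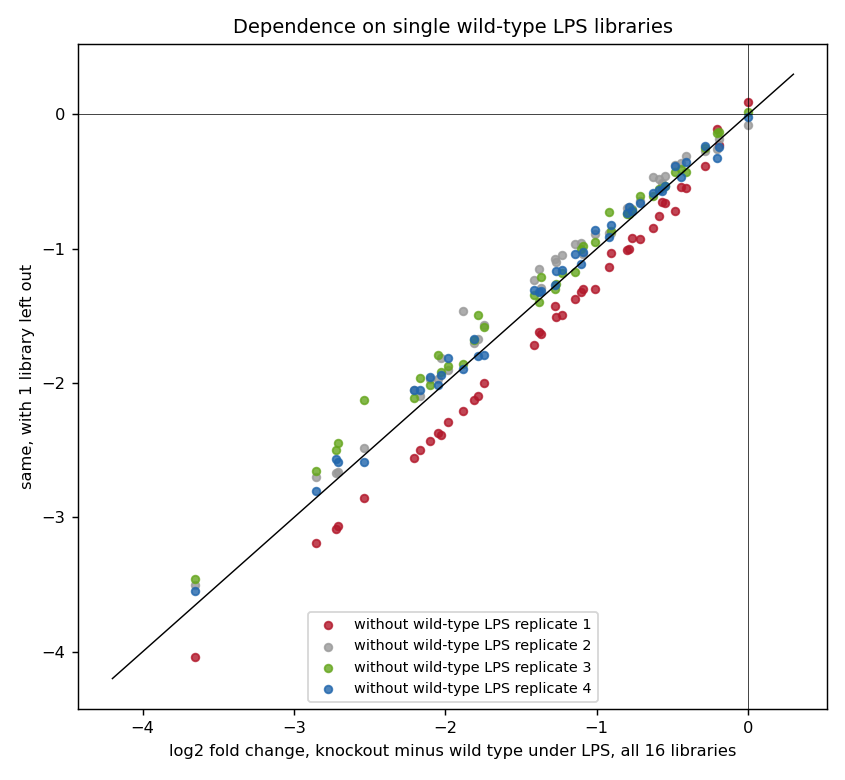
Log2 fold change of knockout against wild type under LPS for each member tested, with all 16 libraries (horizontal axis) and with 1 wild-type LPS library left out (vertical axis, colored by the library left out); the line marks equal values. Values without replicate 1 (red) lie below the line for most members, down to -4.04 for Irf7, and the other points lie near it.

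With PBS alone, no member passed between genotypes. edgeR called 0 of 42 members, against 0.0307% of all genes tested that were higher and 0.00615% that were lower in the knockout. In that fit 2 members had an unadjusted p at or below 0.05, as did 5.17% of all genes. The median was -0.10 against 0.01 for all genes, with 11 of 42 members above 0. DESeq2 and limma-voom called 0 members, against 0.104% and 1.89% of all genes. In limma-voom 8 members had an unadjusted p at or below 0.05, as did 3732 of 16269 genes. The smallest adjusted p of a member there was 0.0554. For 6 members all 4 libraries labelled knockout PBS lay below all 4 wild-type PBS libraries, against 1.82% of all genes tested: Ube2l6, Herc6, Ddx60, Rsad2, Rtp4 and Ifi27l2a. Ifi27l2a stood at 0.58, 0.754, 0.697 and 0.692 CPM in wild-type PBS and at 0.332, 0.152, 0.28 and 0.101 CPM in knockout PBS, and Rsad2 at 2.35, 1.36, 2.39 and 1.36 CPM against 0.997, 1.21, 0.952 and 1.01 CPM. Their log2 fold changes were -1.60 ± 0.59 for Ifi27l2a and -0.84 ± 0.44 for Rsad2 (adjusted p = 0.918 for each). These 6 genes were chosen by all 4 libraries labelled knockout PBS, so the place of replicate 1 among them is set by the choice.

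Beside the members stand the genes that make and carry the interferon signal. Of 33 such genes listed, 27 had a row and were tested; the interferon genes Ifna1, Ifna4, Ifnb1, Ifng, Ifnl2 and Ifnl3 had none in the table used here. With LPS in wild type 5 of 27 rose, Ptpn6 and Ikbke among them, and 0 fell, against 4.72% and 3.85% of all genes tested. In the knockout 0 of 27 passed for LPS, against 0% of all genes tested. Under LPS 5 of 27 fell with genotype, against 7.28% of all genes tested. Ptpn6, a phosphatase of myeloid cells, stood at 3.42, 13.5, 9.75 and 8.82 CPM in wild-type LPS, against 2.15 to 3.3 CPM in wild-type PBS and 2.63 to 3.06 CPM in knockout LPS. Its log2 fold changes were 1.79 for LPS in wild type and -1.62 for genotype under LPS. Ikbke, a kinase that phosphorylates IRF3 and IRF7, fell by 1.26, Tmem173 (STING) by 0.72 and Tyk2 by 0.37 with genotype under LPS. The receptor gene Ifnar1 did not pass (-0.16, adjusted p = 0.0902).

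The members differed widely in level. Per kilobase of exon, mean levels in wild-type PBS ran from 0.0267 CPM for Zbp1, 0.091 for Mx1 and 0.104 for Ifi44 to 12.6 for Trafd1, 17.1 for Ifi27 and 29.9 for Adar. After LPS in wild type the highest were 29.5 for Adar, 23.0 for Lgals3bp, 20.9 for Ifi27, 17.8 for Trafd1 and 14.7 for Bst2. Adar and Ifi27, which had the highest levels with PBS, did not pass for LPS. Among the members with a promoter window, those with an ISRE match had a median log2 fold change for LPS in wild type of 1.30 (11 members, 0.17 to 2.46) and those without one of 0.65 (22 members, -0.02 to 3.37). These medians are a description and were not tested.

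Markers of other cell types also differed between libraries. The summed level of 7 listed neutrophil and monocyte markers was 2.23 CPM in wild-type LPS replicate 1 and up to 16.3 CPM in the other wild-type LPS libraries, against 1.04 to 2.5 CPM in the other 3 groups, and 3 of 5 tested rose with LPS in wild type. S100a8 stood at 0.183, 3.0, 2.94 and 4.71 CPM in wild-type LPS. Of 9 listed T and NK cell markers 7 had a row, and they summed to 0.886 to 4.4 CPM in wild-type LPS, 0.551 to 2.37 CPM in wild-type PBS, 1.37 to 11.6 CPM in knockout PBS and 2.65 to 13.2 CPM in knockout LPS. Cd4 made up most of the highest sums, at 11.3 and 13.1 CPM in replicate 1 of knockout PBS and of knockout LPS, whereas the defining T cell genes Cd3e and Cd3g did not exceed 0.0611 and 0.101 CPM in any library. Gzma, a cytotoxic granule protease gene below the filter on low counts, stood at 0, 0.14, 0.235 and 0.0507 CPM in wild-type LPS. It stood at 0 in all 4 knockout LPS libraries. In the edgeR fit without that filter its adjusted p was 0.0355 for genotype under LPS and 0.231 for LPS in wild type. The log2 fold changes for genotype under LPS in that fit were -2.60 for Gzmb, -1.50 for Nkg7 and -0.46 for Cd3e. They were 1.67 for Cd4, 1.26 for Cd3g and 0.13 for Cd8a, and none of these other markers passed. The 6 microglial markers summed to 217 to 314 CPM in wild-type LPS and 215 to 259 CPM in wild-type PBS, but P2ry12, a receptor of resting microglia, stood at 20.1, 6.06, 6.14 and 4.97 CPM in wild-type LPS, against 22.6 to 25.3 CPM in wild-type PBS. Gfap, an astrocyte gene, stood at 225, 1230, 989 and 1130 CPM in wild-type LPS. There Ly6c1, an endothelial gene, stood at 23.6, 83.2, 79.1 and 80.1 CPM. The 5 astrocyte markers summed to 1040 to 2090 CPM in wild-type LPS and 1040 to 1160 CPM in wild-type PBS. With LPS in wild type 2 of them rose and 0 fell, while Aqp4 (-0.33) and Gja1 (-0.31) were lower without passing. The 5 endothelial markers summed to 166 to 259 CPM in wild-type LPS and 179 to 225 CPM in wild-type PBS. Of these, 1 rose and 1, Flt1 (-0.68), fell. The 5 oligodendrocyte markers summed to 2450 to 5810 CPM in wild-type LPS, with replicate 1 at 3280 CPM, and to 5270 to 6900 CPM in wild-type PBS; 4 of 5 fell with LPS in wild type. The 5 choroid plexus markers summed to 13.5 CPM in wild-type LPS replicate 1 and up to 1230 CPM in that group, and to 10.6 to 3380 CPM in wild-type PBS and 845 to 2280 CPM in knockout LPS. Ttr, the most abundant of them, stood at 1.5, 1130, 518 and 761 CPM in wild-type LPS and at 1.42, 683, 657 and 3120 CPM in wild-type PBS, so replicate 1 of each group held little of it; 0 of 5 passed for LPS in wild type. Beside these marker counts, 4.72% of all genes tested rose and 3.85% fell with LPS in wild type. The part of the marked cell types in the values of the members was not tested.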

How the data were processed

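RNA from 16 mouse hippocampus libraries was described by a deposited table of estimated counts per gene, all of them whole numbers, so none was rounded here; the submitters' processing notes name Salmon 1.9.0, MultiQC 1.13, DESeq2 and DESeq, with no role stated for any of them. The genome build and aligner settings are not given in the sources used here. Symbols, positions and shared 31-base words were looked up in GENCODE M21 (GRCm38), where 120 identifiers with 0.106% of the counts had no symbol. Groups and replicate numbers came from the labels. Promoter windows came from RefSeq, and those on chr18 were left out of the search and of its counts. The ISRE and GAS cores were searched on both strands, overlaps allowed.

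The filterByExpr rule in edgeR 4.0.16 (R 4.3.3) left 16269 genes with 99.97% of the counts. With TMM scaling, 1 quasi-likelihood model of the 4 group means used all 16 libraries, and p-values were adjusted over all genes tested by the Benjamini-Hochberg method at 0.05. SE was computed as the absolute log2 fold change over the square root of F. log2 CPM used a prior count of 2. No molecular identifiers are described, and errors reflect the spread between libraries. The pipeline was tested on simulated data. The members and lists were chosen with earlier results of these data known. Values in every library are given for the 3 members of each role (2 Schlafens) with the smallest p for knockout against wild type under LPS; others given so were chosen after their values were seen.

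Alternatives were RLE scaling, DESeq2 1.42.0, limma-voom (limma 3.58.1) with sample quality weights, no filter, a CPM minimum of 1 in 4 libraries, a replicate block, a fit of only the 8 libraries compared, leaving out each library, leaving out both wild-type LPS replicate 1 and the library labelled knockout PBS replicate 1, and summing wild-type PBS replicates 2 and 3. Those 2 libraries were the closest pair, with a chi-square of 3.78 per gene against 12.3 to 113 for other pairs within a group; this is above sampling noise, so they were kept apart.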

Additional observations from a re-analysis of the deposited data

Results flagged for a closer look

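In 14 of 68 groups of 4 libraries examined for the 17 members with values given by rule, 1 library stood far from the other 3. Chance flags about 1 in 20 where groups are independent. The 17 members were chosen by a test on these same libraries, and all share them. The 14 flags therefore cannot be set against that rate. Of these flags, 10 concern 1 library, wild-type LPS replicate 1, low in each case: Irf7 at 1.44 CPM, Irf9 at 12.6, Isg15 at 1.16, Parp14 at 3.51, Parp9 at 2.66, Parp12 at 8.95, Rtp4 at 1.37, Ifi44 at 0.489, Slfn2 at 1.47 and Slfn8 at 0.733 CPM. The other 4 were Irf7 at 0.997 CPM in knockout LPS replicate 1 (low), Parp14 at 3.32 CPM in wild-type PBS replicate 3 (low), Parp14 at 4.09 CPM in knockout PBS replicate 3 (high) and Slfn2 at 2.35 CPM in the library labelled knockout PBS replicate 1 (high).

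The LPS effect in the knockout was smaller than in wild type for Irf7 by a log2 difference of -3.69, for Trafd1 by -0.56 and for Isg15 by -2.68, each by the interaction test.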

How the results depend on the processing

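In each alternative that called any member, the members called were higher for LPS in wild type, lower for genotype under LPS and lower for the interaction. For LPS in wild type (27 members) the count was 0 in the fit of 8 libraries, 15 with wild-type PBS replicates 2 and 3 summed, and 12 to 39 with 1 library left out. Of all genes, 0%, 4.05% and 3.28% to 20.5% were called there. For genotype under LPS (34) the count was 7 in the fit of 8 libraries, 34 with the replicates summed, and 22 to 40 with 1 library left out. The shares of all genes called were 2.74%, 10.9% and 5.23% to 24.3%. For the interaction (3) the count was 1 with RLE scaling, 19 with DESeq2, 31 with limma-voom, 1 without a filter and 1 with the CPM filter. It was 35 with wild-type LPS replicate 1 and the library labelled knockout PBS replicate 1 left out. It was 0 with the replicates summed, and 0 to 36 with 1 library left out. In the same order, 0.387%, 7.87%, 24.8%, 0.201%, 0.288%, 14.6%, 0% and 0% to 16.1% of all genes were called. The LPS effect in the knockout and the genotype difference under PBS stayed at 0 members in all 25 alternatives each, where at most 0.0184% and 1.89% of all genes were called. The replicate block gave 21 members for LPS in wild type, 31 for genotype under LPS and 0 for the interaction. It called 6.57%, 9.95% and 0% of all genes. Same-numbered libraries had correlations of -0.222 to 0.364. Of these, wild-type replicate 1 at 0.364 and PBS replicate 4 at 0.176 were above 0.1. Not every pair deviated together, so the numbers were not taken to pair the libraries. Adar, near 0 in both comparisons, changed sign. With 1 library left out its log2 fold change ran from -0.1113 to 0.06059 for LPS in wild type and from -0.08154 to 0.09053 for genotype under LPS; the latter was -0.00313 with the CPM filter, -0.001922 in the fit of 8 libraries and -0.001442 with the replicates summed. The cause of these changes was not tested. Low counts limit Zbp1, which stood at no more than 0.186 CPM in 13 of the libraries.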
